A study of Homo sapiens with 20 samples.

Results

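The transcripts of ALKBH1 to ALKBH8 and FTO, the human relatives of the bacterial repair enzyme AlkB, were followed in cells in which 1 of them, ALKBH5, had been knocked out. The 9 genes were taken by symbol, and each was found once in both kinds of table, among 60624 genes listed for islet-like organoids and 60623 listed for pancreatic progenitors. All cells came from MEL1, a human embryonic stem cell line with a GFP reporter at one INS allele. WT cells carried ALKBH5 unedited. A5-KO cells, 1 edited line, had been cut with the nuclease Cpf1 and a pair of guide RNAs against exon 1 of ALKBH5, so the line and the genotype cannot be told apart. Human islet-like organoids (hILOs) were sequenced untreated, with 2 WT and 2 A5-KO libraries. Pancreatic progenitors (PPs), the stage before endocrine commitment, were sequenced before and after actinomycin D, a blocker of transcription given at 1 μg/ml, at 0, 1, 2 and 3 h, with 2 libraries per genotype and time and 16 in all.

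AlkB enzymes and FTO are dioxygenases that use iron and 2-oxoglutarate to oxidise their substrates. In demethylation the oxidised methyl group leaves as formaldehyde. ALKBH5 and FTO act on N6-methyladenosine (m6A) in RNA and are called m6A erasers, opposite to the methyltransferase writers and the binding proteins called readers. ALKBH2 and ALKBH3 repair alkylated bases in DNA, ALKBH3 also in RNA. ALKBH1 and ALKBH8 act on transfer RNA, ALKBH7 is a mitochondrial protein, ALKBH4 has been linked to demethylation of actin, and ALKBH6 is little studied.

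PP libraries held 30516384 to 35206514 reads, recovered from the deposited CPM values, which are counts scaled to a common library total without the spike-in transcripts. hILO values were deposited as TPM, scaled by transcript length and library, from which no read depth can be had. PDX1, NKX6-1, SOX9 and MNX1 were present in PPs at 0 h at 99.9 CPM or more, PTF1A at 0.464 CPM or less, and INS and GCG at 0. Of the 6 progenitor markers, 2 were lower in both A5-KO PP libraries at 0 h. ONECUT1 was at 17.1 to 18.7 CPM in WT against 5.33 to 7.23 CPM, and NKX6-1 at 289 to 367 against 241 to 253 CPM. PTF1A was higher in both, and PDX1, SOX9 and MNX1 overlapped. All 6 islet endocrine markers were lower in both A5-KO hILO libraries, with INS at 12978 to 13033 TPM in WT and 7605 to 7606 TPM in A5-KO, SST at 367 to 381 against 107 to 108 TPM, and a sum over the 6 of 34465 to 36746 against 26188 to 27398 TPM. Of 3 mesenchymal markers in these hILOs, VIM was at 253 to 254 against 121 TPM. COL3A1 went the other way, at 1.53 to 1.82 against 3.83 to 5.40 TPM, and COL1A1 overlapped, at 1.40 TPM or less. In PPs at 0 h all 3 were higher in both A5-KO libraries. VIM was at 415 to 429 against 445 to 449 CPM there, and COL3A1 at 22.0 to 24.1 against 58.8 to 64.5 CPM. A5-KO libraries carried more hepatic marker RNA: the sum of ALB, AFP, APOA1 and TTR was 17025 to 17352 TPM in WT and 29847 to 30189 TPM in A5-KO hILOs, with 3 of 4 markers higher in both A5-KO libraries, and 690.1 to 699.0 CPM against 1532 to 1555 CPM in PPs at 0 h, with 4 of 4 higher. The part of cell makeup in the results that follow was not tested, and in bulk RNA fewer cells of a type and less RNA per cell cannot be told apart. PP replicates differed beyond counting noise, least in A5-KO at 2 h and most in WT at 2 h, where the median gene differed by 0.196 on the log2 scale, against 0.0662 to 0.147 in the other 7 groups. The study describes the replicates of the PP decay series as biological, while the labels do not say what separated the replicates of either stage, so p-values measure the spread between these libraries.

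ALKBH5 (ENSG00000091542) lies on the plus strand of chromosome 17, at chr17:18183078-18209954 in GRCh38, and its MANE Select transcript has 4 exons and 394 codons. Exon 1, at chr17:18183828-18185013, holds 770 of the 1182 coding bases, so the edited exon carries 65.1% of the protein-coding sequence.

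Before any drug, per kilobase of MANE transcript, ALKBH7 and ALKBH5 stood well above the other members in WT PPs. ALKBH7 was at 62.0 CPM per kb (SD 0.265, n = 2) and ALKBH5 at 50.8 CPM per kb (SD 5.07). ALKBH2 came next at 14.2 CPM per kb, 3.58 times below ALKBH5. ALKBH3 at 7.23, ALKBH4 at 5.53, ALKBH1 at 5.48, ALKBH8 at 3.34, FTO at 2.76 and ALKBH6 at 1.16 CPM per kb followed in that order. Among neighbours in this order, the libraries of ALKBH4 and ALKBH1 overlapped and those of the other pairs did not. Per kilobase of all exons joined, ALKBH7, ALKBH5 and ALKBH2 still led, but ALKBH3 stood at rank 6 and overlapped ALKBH1. FTO has a MANE transcript of 11573 bases, so its 29.6 to 34.4 CPM, more reads than any member but ALKBH5 and ALKBH7, placed it only at rank 8 per length. In A5-KO PPs the residual ALKBH5 stood at 6.01 CPM per kb, rank 4 of 9, and its libraries overlapped those of ALKBH1. In hILOs, on the TPM scale, ALKBH5 and ALKBH7 also led in WT, at 80.4 and 80.5 TPM, with overlapping libraries.

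**Figure D1:**
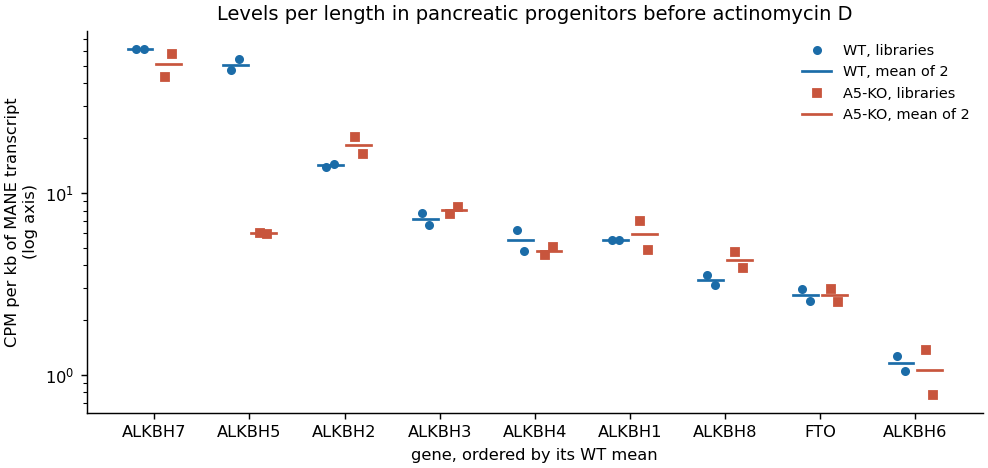
CPM per kilobase of MANE transcript (log axis) of the 9 genes in PPs at 0 h, ordered by the WT mean, with points for libraries and bars for means of 2 libraries (WT blue circles, A5-KO red squares). ALKBH5 dropped from 50.8 in WT to 6.01 in A5-KO, among ALKBH3, ALKBH4 and ALKBH1.

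ALKBH5 transcript was reduced but not lost in A5-KO cells. WT hILOs held 78.8 and 81.9 TPM and A5-KO hILOs 4.16 and 3.42 TPM, so the A5-KO mean was 4.72% of WT. WT PPs at 0 h held 149 and 172 CPM and A5-KO PPs 19.1 and 18.8 CPM, 11.8% of WT. The A5-KO values rest on 619 and 643 reads, with exact 95% Poisson intervals of 17.7 to 20.7 and 17.4 to 20.3 CPM. These cover counting error only. Such an interval excludes 0 for any count above 0, so it does not test where the residual reads came from. No library of one genotype reached the range of the other at either stage.

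On the log2(value + 1) scale, ALKBH5 fell by 4.09 in A5-KO hILOs (SE 0.108, limma adjusted p = 0.00213) and by 3.01 in A5-KO PPs at 0 h (SE 0.10, adjusted p = 1.46e-06). A gene was called when its adjusted p over all genes was below 0.05 and its change was over 1.5-fold. By that rule 6.79% of 17300 tested genes were called in hILOs and 2.7% of 13911 in PPs at 0 h. The share of transcript left in A5-KO cells was higher in PPs than in hILOs, but the units differ and this difference was not tested. Of the nearest protein-coding genes on either side of ALKBH5, DRG2, LLGL1 and FLII were tested and none was called in hILOs or in PPs at 0 or 3 h. MYO15A was too low to test. The lncRNA ENSG00000266677, which shares 357 of the 3601 exon bases of ALKBH5 on the opposite strand, stayed at 0.0651 CPM or less in every PP library.

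After actinomycin D the WT transcript fell late and the A5-KO residual early. WT libraries held 133 and 125 CPM at 1 h, 107 and 83.4 CPM at 2 h, and 48.3 and 33.7 CPM at 3 h. These were 80.5%, 59.3% and 25.6% of the WT mean at 0 h. A5-KO libraries held 11.1 and 10.1 CPM at 1 h, 8.38 and 9.31 CPM at 2 h, and 8.98 and 7.43 CPM at 3 h, or 55.8%, 46.6% and 43.2% of the A5-KO mean at 0 h. Between successive times WT ALKBH5 changed by -0.31, -0.45 and -1.22 on the log2(CPM + 0.1) scale, and A5-KO by -0.84, -0.26 and -0.11. As a result the A5-KO level was 8.2% of WT at 1 h, 9.28% at 2 h and 20.0% at 3 h. CPM is relative to all RNA counted in a library, so a slope here compares a transcript with the mean of the others.

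**Figure D2:**
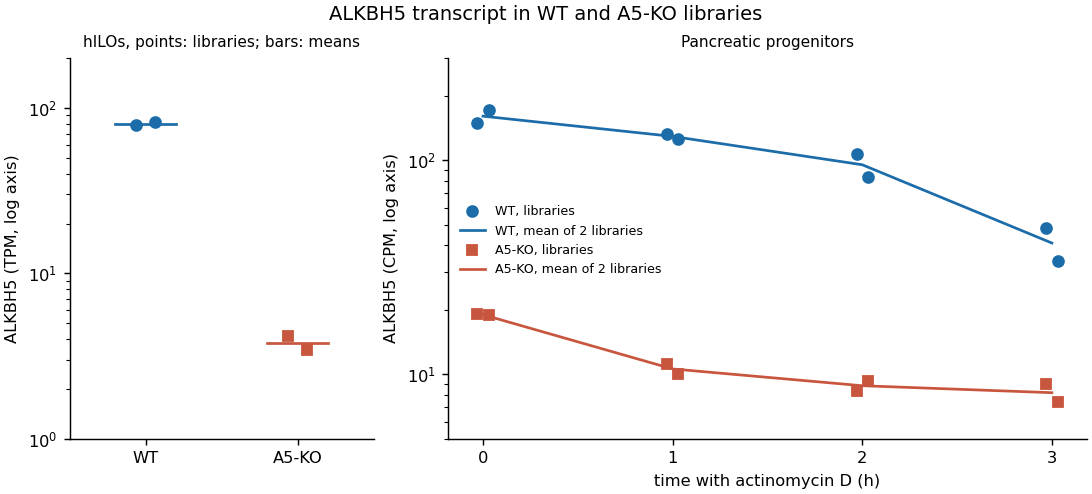
ALKBH5 in each library on log axes, in TPM for hILOs (left, bars are means) and in CPM for PPs against hours of actinomycin D (right, lines join means of 2 libraries). WT ran from 149 and 172 CPM to 48.3 and 33.7 CPM with its steepest step after 2 h, while A5-KO went from 19.1 and 18.8 CPM to near 10 CPM by 1 h and little further.

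A straight line through the 4 times gave ALKBH5 a slope of -0.64 per h in WT on the log2 scale (SE 0.0824, limma adjusted p = 0.00369, half-life 1.56 h) and of -0.39 per h in A5-KO (SE 0.0824, adjusted p = 0.00114, half-life 2.58 h). These half-lives are relative to the library total, and the courses above were not straight. With lines forced through the 0 h library of the same number, half-lives were 2.33 and 1.46 h in WT. In A5-KO they were 2.19 and 2.03 h, between the WT values. Over all 13620 tested genes, 0.242% had a slope called in WT and 44.5% in A5-KO. ALKBH5 was thus among 33 genes called in WT, of which 15 had a negative slope. That count depended on the times used: 0 and 1 h alone gave 3805 called genes in WT, and 0 and 3 h alone 2422. Over the 4 times the 2 slopes of ALKBH5 differed by 0.25 per h (95% interval 0.0068 to 0.50, limma adjusted p = 0.21), which did not pass the test over all genes. The called share for that difference was 2.67%. The difference depended on the times used: with 0 and 1 h alone the difference was -0.53 per h (adjusted p = 0.239) and over 1 to 3 h, a window chosen after the values were seen, it was 0.65 per h (adjusted p = 0.0097). Leaving out WT 3 h replicate 1 took the WT slope out of the called set (-0.64, adjusted p = 0.0671).

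None of the other 8 members was called in A5-KO PPs at 0 h. ALKBH2 stood at 16.4 and 17.1 CPM in WT and reached 24.0 and 19.3 CPM in the A5-KO libraries (log2 fold change 0.34, adjusted p = 0.216). ALKBH8, which modifies wobble uridines of transfer RNA, went from 14.4 and 12.7 CPM in WT to 19.2 and 15.8 CPM (log2 fold change 0.34, adjusted p = 0.242). Both were higher in both A5-KO libraries and had an unadjusted p below 0.05, as did 19.3% of all tested genes. ALKBH7 was lower in both, at 60.0 and 60.4 CPM in WT against 42.3 and 56.7 CPM (log2 fold change -0.29, adjusted p = 0.261). The libraries of the other 5 members overlapped between genotypes. FTO, the other m6A eraser, gave 34.4 and 29.6 CPM in WT against 34.5 and 29.1 CPM, with a log2 fold change of -0.01 and a 95% interval of -0.29 to 0.27. Genotypes that do not overlap were common, at 49.8% of tested genes at 0 h, so 4 of 9 members was no more than the background.

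In A5-KO hILOs 1 of the other 8, ALKBH2, was called, where 6.79% of all tested genes were called. WT organoids had 25.2 and 20.7 TPM of it and A5-KO organoids 12.5 and 12.9 TPM, a fall of 0.80 on the log2 scale (SE 0.123, adjusted p = 0.0296). The call was lost without the filter on low values (adjusted p = 0.0984) and with a replicate block (0.0604). With any 1 of the 4 libraries left out the fall was between 0.66 and 0.93, and the gene was not called (adjusted p 0.0732 to 0.115). Those fits take the spread from the other arm alone and called only 189 to 288 of all genes, so they say little about this call. The endocrine, hepatic and VIM levels above moved in the same hILO libraries, and their part in this difference was not tested. ALKBH6 was lower in both A5-KO libraries, at 5.98 and 7.69 TPM against 4.58 and 3.67 TPM (log2 fold change -0.61, adjusted p = 0.116), as was FTO, at 6.96 and 5.78 TPM against 4.94 and 4.68 TPM (-0.34, adjusted p = 0.216). ALKBH1, at 8.78 and 9.05 TPM against 8.35 and 8.33 TPM, did not overlap either, with a log2 fold change of -0.09. ALKBH3, ALKBH4, ALKBH7 and ALKBH8 overlapped between genotypes. In all 5 of 9 members did not overlap in hILOs, against 61.4% of all tested genes.

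**Figure D3:**
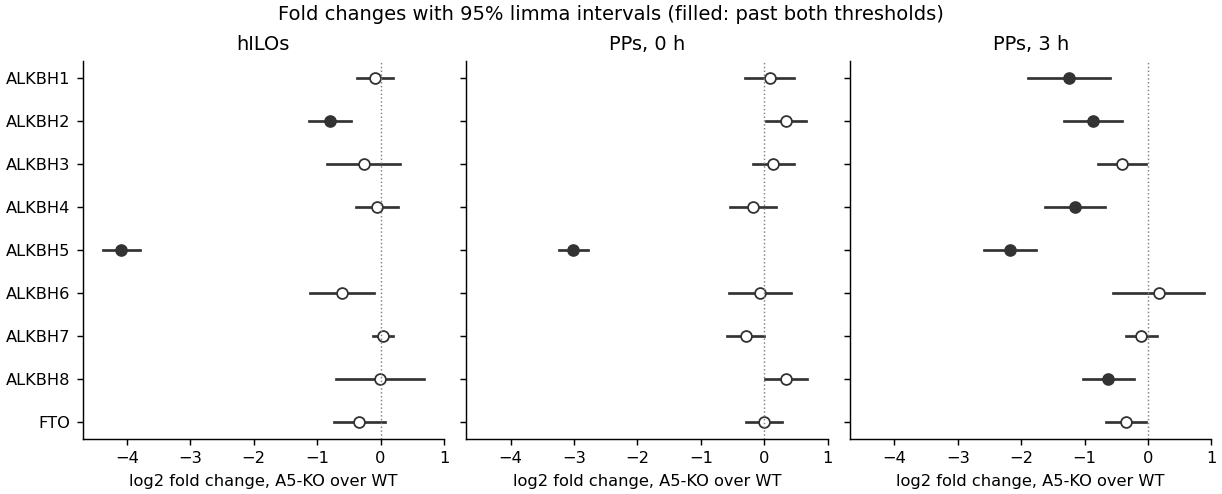
Log2 fold change of A5-KO over WT for the 9 genes in hILOs (TPM), PPs at 0 h and PPs at 3 h of actinomycin D (CPM), with 95% limma intervals and filled points for genes past both thresholds. Besides ALKBH5, ALKBH2 was past them in hILOs, no gene at 0 h, and ALKBH1, ALKBH2, ALKBH4 and ALKBH8 at 3 h.

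After 3 h of actinomycin D, 4 of the other 8 members were called lower in A5-KO PPs, where 17.7% of all tested genes were called. ALKBH1 stood at 5.04 and 7.65 CPM in WT against 2.93 and 1.39 CPM, a fall of 1.24 on the log2 scale (SE 0.286, adjusted p = 0.0119). ALKBH4 stood at 5.61 and 5.37 CPM against 2.19 and 1.68 CPM, a fall of 1.15 (SE 0.208, adjusted p = 0.00381). ALKBH2 stood at 13.5 and 11.3 CPM against 7.61 and 5.19 CPM, a fall of 0.87 (SE 0.202, adjusted p = 0.0122). ALKBH8 stood at 11 and 10.6 CPM against 7.53 and 5.82 CPM, a fall of 0.63 (SE 0.179, adjusted p = 0.0297). In each of the 4 the genotypes did not overlap. The levels of ALKBH2 and ALKBH8, higher in both A5-KO libraries at 0 h, were thus lower in both at 3 h, a reversal without overlap at either time that 13.3% of genes tested at both times also had. ALKBH2 was likewise lower in hILOs and higher in PPs at 0 h without overlap, and 15% of genes tested at both stages were opposed in this way.

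ALKBH3 (log2 fold change -0.41, adjusted p = 0.105) and FTO (-0.35, adjusted p = 0.0994) were also lower in both A5-KO libraries at 3 h without being called. ALKBH7, at 67.8 and 55.7 CPM against 56.5 and 57.6 CPM, and ALKBH6, at 0.746 and 1.99 against 2.07 and 1.14 CPM, overlapped between genotypes. ALKBH5 itself was lower by 2.17 at 3 h (SE 0.182, adjusted p = 0.000161). At this time 17.7% of 13444 tested genes were called, 2234 lower and 144 higher, the median gene stood at -0.12, and 66% of genes did not overlap. Scaling by the median of ratios raised A5-KO by 0.118 relative to WT and gave 1754 lower and 286 higher calls, and edgeR gave 1786 and 356. ALKBH1, ALKBH2 and ALKBH4 stayed called under that scaling and in edgeR, and ALKBH8 did not (adjusted p = 0.0513 and 0.0606). Without A5-KO 3 h replicate 2 only ALKBH5 and ALKBH4 remained called, and without replicate 1 ALKBH8 was lost (adjusted p = 0.0532). Without the filter on low values ALKBH5 alone was called. The sum of the 6 progenitor markers at 3 h was 329 to 341 CPM in WT and 86.6 to 99.1 CPM in A5-KO, lower in all 6, and its part in these differences was not tested.

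The other members took several courses under actinomycin D. In WT, ALKBH1 and ALKBH4 were at 40.0% and 43.5% of their 0 h mean after 1 h and at 44.6% and 47.5% after 3 h. In A5-KO they were at 43.4% and 62.9% after 1 h and at 14.0% and 19.2% after 3 h. The WT libraries of ALKBH1 held 14.2 and 14.2 CPM before the drug, then 5.75 and 5.63, 3.18 and 8.05, and 5.04 and 7.65 CPM after each further hour. Its A5-KO libraries held 18.1 and 12.7, 7.36 and 5.99, 2.98 and 2.69, and 2.93 and 1.39 CPM. For ALKBH4 the WT courses were 13.1 and 10.1, 4.23 and 5.82, 3.76 and 7.75, and 5.61 and 5.37 CPM, and the A5-KO courses 9.58 and 10.6, 6.39 and 6.28, 2.89 and 2.92, and 2.19 and 1.68 CPM. The 2 WT libraries at 2 h were far apart for both genes, and those of A5-KO close together.

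ALKBH2, ALKBH3 and ALKBH8 in WT were still at 73.9%, 96.4% and 79.3% of their 0 h mean after 3 h. In A5-KO they were at 29.5%, 63.3% and 38.2%. For ALKBH2 the WT libraries after 1, 2 and 3 h held 9.89 and 13.5, 7.16 and 12.5, and 13.5 and 11.3 CPM, and the A5-KO libraries 14.4 and 16.9, 6.89 and 7.27, and 7.61 and 5.19 CPM. ALKBH3 in WT ran between 7.86 and 12.0 CPM over all times, and in A5-KO from 12.9 and 14.4 CPM at 1 h to 8.35 and 7.34 CPM at 3 h. ALKBH8 in WT was lowest at 2 h, at 6.97 and 7.66 CPM, and at 11 and 10.6 CPM at 3 h, while in A5-KO it was at 8.08 and 8.59 CPM by 1 h. FTO stayed between 24.2 and 34.4 CPM in WT and, in A5-KO, between 18.8 and 26.1 CPM from 1 h on. ALKBH7 and ALKBH6 showed no downward course in either genotype, ALKBH7 between 42.3 and 74.0 CPM and ALKBH6 between 0.732 and 2.07 CPM, on 23 to 73 reads.

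**Figure D4:**
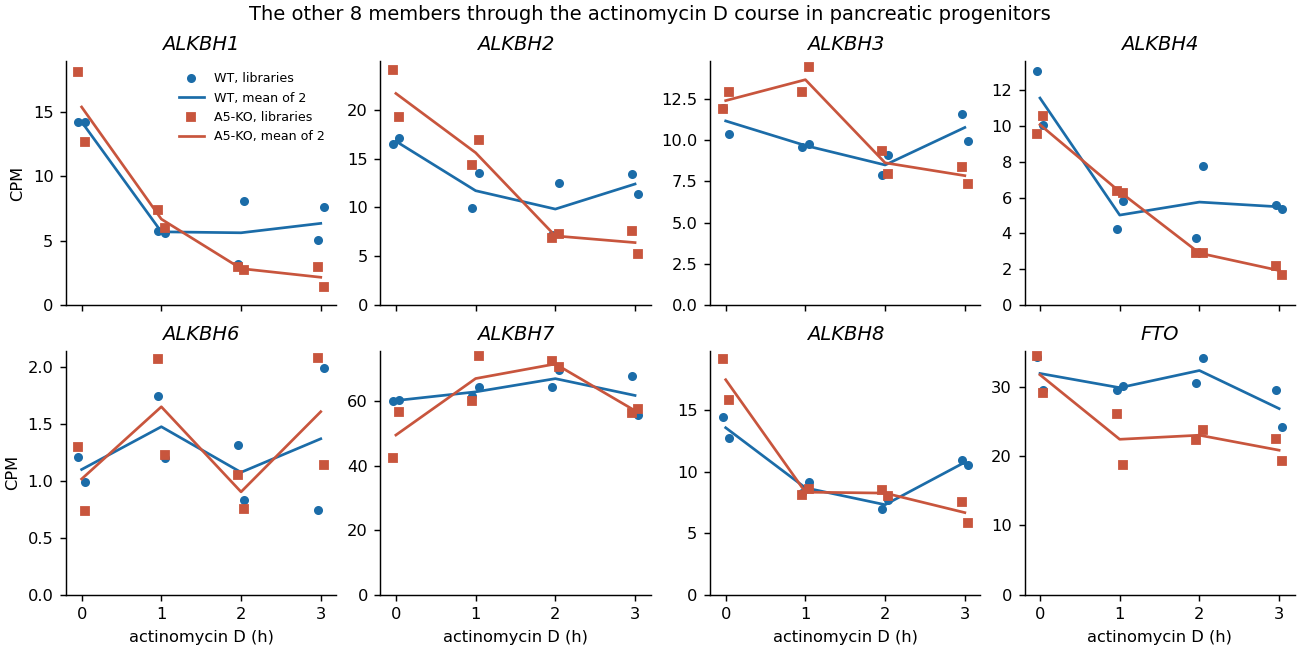
CPM of the 8 genes other than ALKBH5 against hours of actinomycin D in PPs, with points for libraries and lines through means of 2 (WT blue circles, A5-KO red squares, each panel from 0 on its own scale). After 3 h the A5-KO means of ALKBH1, ALKBH2 and ALKBH4 were at 14.0%, 29.5% and 19.2% of their 0 h level, against 44.6%, 73.9% and 47.5% in WT.

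By the line through 4 times, 6 of these 8 fell in A5-KO and none was called in WT. ALKBH1 had the steepest A5-KO slope, -0.97 per h (SE 0.149, half-life 1.03 h), then ALKBH4 at -0.81 (1.23 h), ALKBH2 at -0.64 (1.56 h), ALKBH8 at -0.42 (2.41 h), ALKBH3 at -0.26 (3.81 h) and FTO at -0.18 per h (5.71 h, adjusted p = 0.0212). The steepest WT slopes among them were ALKBH1 at -0.37 and ALKBH4 at -0.30 per h, both with limma adjusted p = 0.354. From 0 and 1 h alone, WT slopes were called for ALKBH1 (-1.31 per h), ALKBH4 (-1.19), ALKBH8 (-0.64) and ALKBH2 (-0.53). Their limma adjusted p ran from 7.68e-05 to 0.0277, in a fit that called 3805 of all genes in WT. The 6 of 8 compare with the 44.5% of all genes called in A5-KO. Scaled by the median of ratios, the share of negative slopes among called genes in A5-KO went from 83.3% to 53.3% (3636 of 6822), the FTO slope was lost (-0.08, adjusted p = 0.271), as it also was in edgeR (0.210) and without A5-KO 0 h replicate 1 (-0.12, 0.173), 0 h replicate 2 (-0.17, 0.0654) or 3 h replicate 2 (-0.16, 0.0779), and the ALKBH7 slope of 0.08 became 0.18 (adjusted p = 0.0441), while the other 5 falls kept their calls under that scaling.

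The difference in slope between genotypes was not called for any member, and 5 of these 8, against 22.4% of all genes, had an unadjusted p below 0.05. It was -0.48 per h for ALKBH2 (95% interval -0.78 to -0.19, adjusted p = 0.0667), -0.51 for ALKBH4 (-0.85 to -0.17, adjusted p = 0.0846), -0.60 for ALKBH1 (-1.05 to -0.16, adjusted p = 0.106), -0.23 for ALKBH3 (adjusted p = 0.174) and -0.29 for ALKBH8 (adjusted p = 0.221). From 0 and 3 h alone ALKBH1, ALKBH2, ALKBH4 and ALKBH8 passed (adjusted p 0.00644 to 0.0223), as did ALKBH5 in the opposite direction (0.26 per h, adjusted p = 0.0313), in a fit that called 22% of all genes. In the window from 1 to 3 h, ALKBH1 differed by -0.90, ALKBH4 by -0.91, ALKBH2 by -0.69 and ALKBH3 by -0.47 per h (adjusted p 0.0127 to 0.0459), again against 0.65 for ALKBH5, where 12.7% of all genes were called. Single libraries moved these calls: without WT 2 h replicate 1 the full course called ALKBH1, ALKBH2 and ALKBH4 (adjusted p 0.0130 to 0.0322) and 10.2% of all genes, without WT 0 h replicate 1 it called ALKBH2 and ALKBH4 and 11.1% of all genes, and without 2 h altogether it called ALKBH2 alone (adjusted p = 0.0362) and 5.31% of all genes.

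**Figure D5:**
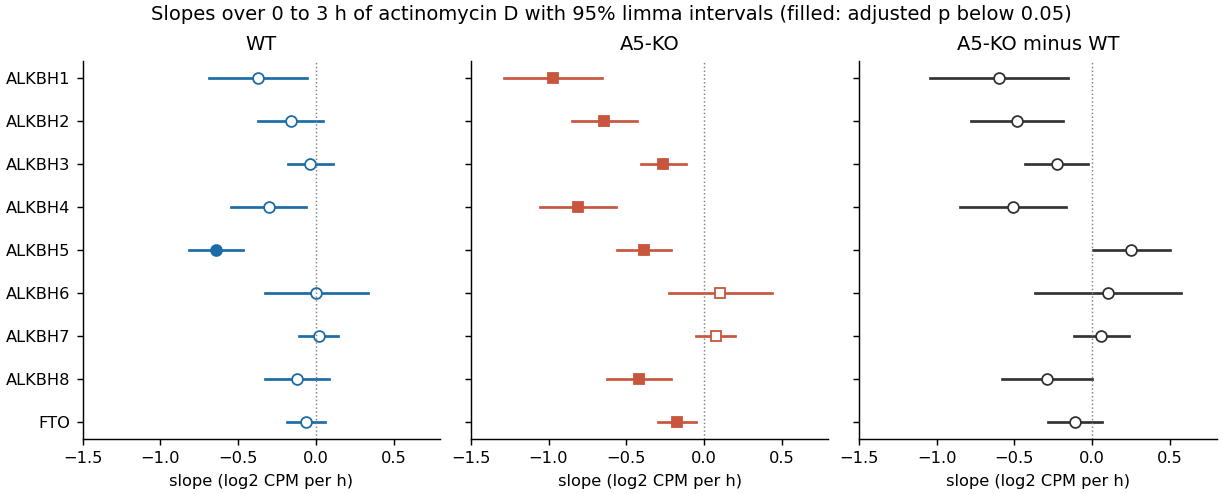
Slopes of log2(CPM + 0.1) on hours of actinomycin D for the 9 genes in WT, in A5-KO and as A5-KO minus WT, with 95% limma intervals and filled points at an adjusted p below 0.05. ALKBH5 alone was past the threshold in WT, 7 genes were in A5-KO, and no difference was, ALKBH5 lying at 0.25 and ALKBH1, ALKBH2 and ALKBH4 at -0.60, -0.48 and -0.51 per h.

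The writers of m6A, which ALKBH5 and FTO oppose, were compared in the same way. Of METTL3, METTL14, METTL16, WTAP, VIRMA, ZC3H13, CBLL1, RBM15 and RBM15B, none of 9 was called in hILOs or in PPs at 0 h. At an unadjusted p below 0.05 were 2 in hILOs and 1 at 0 h, against 30.9% and 19.3% of all genes. The list medians were -0.18 and 0.07 on the log2 scale, with 9 and 2 of the 9 below 0. At 3 h 8 of 9 were called lower in A5-KO, where 17.7% of all genes were called, with a list median of -0.995, against -0.12 for all genes. METTL14, partner of the catalytic subunit, was at 26.6 CPM in WT (SD 6.35) and 13.6 CPM in A5-KO (SD 0.0376), and WTAP, a scaffold of the complex, fell by 1.17 (adjusted p = 0.000474). METTL3, the catalytic subunit, was at 50.5 CPM (SD 10.0) and 48.4 CPM (SD 0.895) and was the exception. The WT means of METTL14 and WTAP had risen since 2 h, from 18.1 and 35.4 CPM to 26.6 and 47.5 CPM. Their A5-KO means had fallen, from 16.9 and 28.0 CPM to 13.6 and 20.4 CPM. VIRMA, another scaffold, had a steeper slope in A5-KO by 0.33 per h (limma adjusted p = 0.0409). It was the only writer of 9 whose slope difference was called, where 2.67% of all genes were. The call was lost without the filter on low values and with a replicate block, where no gene was called. It was also lost with several of the single libraries left out. In A5-KO 8 of 9 writer slopes were negative and called, against 44.5% of all genes called. In WT none was called, against 0.242%, and 6 of 9 had an unadjusted p below 0.05, against 13.4% of all genes.

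Among 8 readers, 3 were called lower in A5-KO PPs at 3 h, against 17.7% of all genes called, the cytoplasmic YTHDF proteins, which bind m6A in messenger RNA. YTHDF2, which hastens decay of bound RNA, was lower by 1.83 (SE 0.121), at 65.9 CPM in WT (SD 7.1) and 17.8 CPM in A5-KO (SD 1.7). At 2 h its libraries had held 35.9 and 56.8 CPM in WT and 28.9 and 32.0 CPM in A5-KO. YTHDF1 was lower by 1.41 and YTHDF3 by 0.64 at 3 h, and 3 of 8 readers had called slopes in A5-KO, below the 44.5% of all genes. At 0 h none of 8 readers was called, nor any at an unadjusted p below 0.05. In hILOs IGF2BP3, which stabilises bound RNA, was lower by 0.60 (28.5 against 18.4 TPM, limma adjusted p = 0.0457). It was the only 1 of 8 readers called there, where 6.79% of all genes were called. The part of the hILO marker differences in this was not tested either.

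Over the 16 PP libraries the tested genes most like ALKBH5, by Pearson correlation of log2(CPM + 0.1), were CLMP (0.981), ZSCAN5A (0.981), PCDHGB5 (0.980), MYH14 (0.979) and SLFN11 (0.977). All points share the same libraries and the 2 genotypes, so the values describe a common pattern of low A5-KO and falling WT levels. MYH14, a myosin heavy chain, was at 8.5 to 13.4 CPM in WT at 0 h and at 0.0293 CPM or less in A5-KO, and SLFN11 at 25.1 to 30.9 against 7.48 to 8.14 CPM. CLMP was higher in A5-KO hILOs, at 36.3 TPM in both libraries against 21.6 to 22.9 TPM. FTO ranked 414th of 13619 genes, at 0.747, and the other members lay between -0.07 and 0.516.

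Some member counts may share reads with other genes. ALKBH6 shares 1076 of its 4293 exon bases with the lncRNA ENSG00000248101 on the same strand, which was at 8.33 to 11.1 TPM in hILOs and at 0 in every PP library, so ALKBH6 is uncertain. ALKBH4 shares 588 exon bases with ORAI2 and ALKBH7 103 with PSPN, both on the opposite strand, and the strand setting of the counting is not given in the sources used here. ORAI2 was at 28.1 to 42.6 CPM in PPs with no call in any comparison, unlike ALKBH4. ALKBH1, ALKBH2 and ALKBH8 overlap no annotated exon of another gene.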

How the data were processed

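RNA of WT and A5-KO hILOs (4 libraries) and PPs (16 libraries) was sequenced. Per the labels, reads were aligned to hg38 with HISAT2 (2.1.0), those of PPs after fastp. The authors deposited TPM per gene for hILOs, made with StringTie, and CPM per gene for PPs after removing ERCC spike-ins, so values are relative to each library's own RNA. All PP values (100%) were whole reads within 0.05 reads. Deposited IDs were matched to GENCODE 44 (60370 of 60624 and 60369 of 60623).

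Genotypes were compared with limma (3.58.1, R 4.3.3) on log2(value + 1) for genes with a mean of at least 1, with calls requiring both a change over 1.5-fold and, by Benjamini-Hochberg over all genes, an adjusted p below 0.05. Slopes on hours used log2(CPM + 0.1), with an intercept and slope per genotype over 16 libraries, called at an adjusted p below 0.05. With 2 against 2 an exact permutation test cannot go below 0.33, so none is given. Fold changes of low genes are understated by the pseudocount. Count models on recovered reads (edgeR 4.0.16, DESeq2 1.42.0) served as alternatives. On simulated data each of 4 limma comparisons recovered all 200 changed genes, with at most 6 false calls. The changes were set at 2 on the log2 scale for genotype comparisons and at 0.5 per h for slopes. The simulation gave every gene the same fixed spread and did not copy the spread between these replicates. It checks the procedure and does not measure its power in the real data.

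Named genes were the 9 members, fixed lists (m6A writers and readers, AlkB partners, TET enzymes, 2-oxoglutarate enzymes), the neighbours of ALKBH5, exon-sharing genes and the 5 genes most correlated with ALKBH5. The result of 1 listed gene is not reported here. Members and lists were chosen with earlier results of these data known. Replicate numbers are shared by the genotypes without a label that pairs them.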

Additional observations from a re-analysis of the deposited data

Results flagged for a closer look

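ALKBH2 moved in opposite directions in the 2 stages, with no overlap between genotypes in either: its log2 fold change was -0.80 in A5-KO hILOs and 0.34 in A5-KO PPs at 0 h. The units and the RNA extraction differ between stages, and the difference between them was not tested. Of 12729 genes tested in both, 15% did the same.

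ALKBH2 and ALKBH8 changed sides between 0 and 3 h of actinomycin D. ALKBH2 went from 0.34 to -0.87 and ALKBH8 from 0.34 to -0.63, with no overlap at either time, as did 13.3% of 13280 genes. From 0 and 3 h alone, the slope differences were -0.44 per h (limma adjusted p = 0.00644) and -0.35 per h (adjusted p = 0.0119). That fit called 22% of all genes and used the libraries in which the reversal was seen, so it is no separate test of it. Over the 4 times the differences were -0.48 (limma adjusted p = 0.0667) and -0.29 (0.221), neither past the threshold.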

How the results depend on the processing

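The loss of ALKBH5 in A5-KO kept its direction and its call in every alternative in hILOs (9 tried) and in PPs at 0 and 3 h (11 each), between -4.38 and -3.98, -3.12 and -2.91, and -2.43 and -1.92 on the log2 scale, and at 0 h ALKBH5 was the only member called in all 11. Its WT slope ran from -0.71 to -0.52 per h with single libraries left out. The other counts depend more on the settings. In hILOs 1 member, not 2, was called without the filter on low values, with a replicate block, and with any library left out (1 to 1). At 3 h 1 was called without the filter, which takes more genes into the fit and the adjustment, and 2 to 5 with libraries left out. For the difference in slope the count of 0 became 5 from 0 and 3 h (ALKBH5 0.26 per h), 5 from 1, 2 and 3 h (ALKBH5 0.65), a window added after the values were seen, 1 without 2 h, and 0 to 3 with libraries left out. In WT, 3 slopes were called from 0 and 3 h, where 2422 of all genes were. From 0 and 1 h 5 were, with 3805 of all genes, and 0 to 1 with libraries left out. In A5-KO 4 were called from 1, 2 and 3 h, with 2784 of all genes, and the ALKBH5 slope of -0.18 was not.

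Values that changed sign were, but for the ALKBH3 slope in A5-KO, of members not called. From 0 and 1 h the slope differences were 0.13 (ALKBH1), 0.064 (ALKBH2), 0.34 (ALKBH3), 0.53 (ALKBH4) and -0.53 (ALKBH5), and the A5-KO slope of ALKBH3 was 0.14. From 1, 2 and 3 h the differences of ALKBH7 and FTO were -0.096 and 0.036, the WT slopes of ALKBH1, ALKBH2, ALKBH3, ALKBH4, ALKBH6, ALKBH7 and ALKBH8 were 0.062, 0.047, 0.074, 0.071, -0.11, -0.016 and 0.15, and the A5-KO slopes of ALKBH6 and ALKBH7 -0.025 and -0.11. In hILOs ALKBH4 was at 0.0041 and ALKBH8 at 0.044 under median-of-ratios scaling, and ALKBH8 at 0.032 when TPM totals were equalised. At 3 h ALKBH7 was at 0.0099 under median-of-ratios scaling, 0.023 in edgeR and 0.033 in DESeq2. With libraries left out, the ranges were -0.15 to 0.041 (ALKBH4), -0.014 to 0.093 (ALKBH7) and -0.31 to 0.29 (ALKBH8) in hILOs, -0.16 to 0.33 (ALKBH1), -0.14 to 0.13 (ALKBH6) and -0.13 to 0.11 (FTO) at 0 h, and -0.22 to 0.55 (ALKBH6) and -0.25 to 0.033 (ALKBH7) at 3 h. For slopes they were -0.043 to 0.26 (ALKBH6) and -0.034 to 0.11 (ALKBH7) for the difference, -0.10 to 0.015 (ALKBH3), -0.15 to 0.15 (ALKBH6) and -0.00088 to 0.064 (ALKBH7) in WT, and -0.028 to 0.16 (ALKBH6) and -0.016 to 0.12 (ALKBH7) in A5-KO. The cause of these changes was not tested.

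The count of all genes called moved as well: from 1174 in hILOs to 189 to 288 with a library left out and 330 without the filter, from 375 at 0 h to 164 without the filter and 631 with a replicate block, from 2378 at 3 h to 1040 without the filter, and for the slope difference from 364 to 3029 from 0 and 3 h and to 0 without the filter or with the block, which in hILOs gave 674. Same-numbered libraries of the genotypes correlated in their deviations at -0.00526 in hILOs and at 0.134, -0.0101, -0.0493 and -0.0297 in PPs at 0, 1, 2 and 3 h. With 2 libraries a group these values cannot settle whether the numbers pair the libraries. The block changed no other member's call than that of ALKBH2 in hILOs. With 2 libraries a group and ALKBH6 on at most 73 reads, small differences could not be resolved.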

Other observations

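Enzymes of 2-oxoglutarate chemistry were followed beside the members. Of 13 enzymes that make or use 2-oxoglutarate, none was called between genotypes in hILOs, in PPs at 0 h or at 3 h. An unadjusted p below 0.05 was had by 3, 4 and 4, against 30.9%, 19.3% and 39.5% of all genes. Their median log2 fold change at 3 h was 0.09, against -0.12 for all genes. In A5-KO 5 of 13 slopes were called, 2 negative and 3 positive, below the 44.5% of all genes. Those of IDH3A (-0.17 per h) and GOT1 (-0.12) were negative and called, and those of IDH2 (0.11) and D2HGDH (0.21) were among the positive. The TET enzymes, dioxygenases that oxidise 5-methylcytosine in DNA, were lower in some comparisons. TET2 was at 2.93 TPM in WT hILOs (SD 0.183) and 0.818 TPM in A5-KO (SD 0.0179, log2 fold change -1.11, limma adjusted p = 0.034). It was the only 1 of 3 called there, where 6.79% of all genes were called. None of 3 was called in PPs at 0 h, with 1 at an unadjusted p below 0.05, against 19.3% of all genes. At 3 h TET1 and TET2 were lower by 0.87 and 1.01 and called, where 17.7% of all genes were called. All 3 had negative called slopes in A5-KO, where 44.5% of all genes were called. In WT none was called, where 0.242% of all genes were, and 1 of 3 had an unadjusted p below 0.05, against 13.4%. The endocrine and hepatic markers also differed between these hILOs, and their part in the TET2 difference was not tested.

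The 5 protein partners of the AlkB enzymes were not called in any genotype comparison or slope difference. At an unadjusted p below 0.05 were 2 in hILOs, 1 at 0 h, 3 at 3 h and 2 for the slope difference. The shares of all genes were 30.9%, 19.3%, 39.5% and 22.4%. In A5-KO the slopes of PCNA, which binds ALKBH2, of ASCC3, the helicase that works with ALKBH3, and of ASCC1 were between -0.18 and -0.13 per h and called. That of TRMT112, which activates ALKBH8, was 0.13 per h and called. ASCC2 was not called. Of all genes, 44.5% had called slopes in A5-KO.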
